A study of Mus musculus with 5 samples.

Results

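Chemokine and chemokine receptor genes were followed in H3K14ac profiles of blood stem and early progenitor cells with and without the acetyltransferase HBO1. Members were chosen by symbol, as mouse genes whose symbol starts with Ccl, Cxcl, Ccr, Cxcr or Ackr and goes on with a digit. Of 27179 counted genes, 55 were members. They comprised 26 CC chemokines, 11 CXC chemokines, 9 CC receptors, 5 CXC receptors and 4 atypical receptors. A few other genes that match by symbol were left out by name, and 3 pseudogene symbols were not matched in the count tables. The rule reads symbols and no measured value, although it was proposed with earlier results of these data known.

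The libraries came from LSK cells, a bone marrow fraction that is lineage-negative, Sca-1-positive and Kit-positive and holds blood stem cells with early progenitors, sorted from male C57BL/6 mice. The 2 control libraries carry the genotype Hbo1def/+; T/+ and the 2 knockout libraries Hbo1def/def; T/+. Mice of both groups received poly(I:C), a double-stranded RNA mimic that triggers interferon, to induce the Mx1-cre recombinase, and both carry T/+, which the labels do not spell out. The mark is the acetyl group on lysine 14 of histone H3, mapped by CUT&Tag: an antibody against the mark tethers Tn5 transposase, which cuts and tags the DNA around it. Mx1-cre is driven by an interferon-responsive promoter that is not restricted to stem cells. The sources used here give neither the age of the mice nor the time from poly(I:C) to sorting.

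Chemokines are small secreted proteins that guide leukocytes by binding receptors of the G protein-coupled class. Inflammatory chemokines are made on demand, often under NF-kB, and homeostatic chemokines hold cells in tissues such as lymph nodes and skin. Atypical receptors bind chemokines without G protein signalling and clear them. In bone marrow, chemokine signals help to position stem cells and to release myeloid cells into blood. H3K14ac is deposited by HBO1 and other acetyltransferases and is found at active and poised genes.

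Promoters of 3 genes whose bodies rose and 3 genes whose bodies fell are shown because most member promoters share a CpG-poor sequence, and motif matches occur in both groups. Each run is the 250 bases before the RefSeq start site (GRCm38.p6), read 5′ to 3′ on the gene's strand. Capitals mark a match to an NF-kB type motif (GGG, any 2 bases, then TTTCC) or to TATAAA, on either strand. Ccl9 lies at chr11:83578637-83578886 (minus strand), Ccr1 at chr9:123968693-123968942 (minus), Cxcl2 at chr5:90903649-90903898 (plus), Ccl20 at chr1:83116516-83116765 (plus), Cxcl13 at chr5:95956689-95956938 (plus) and Ccl8 at chr11:82114935-82115184 (plus).
Ccl9: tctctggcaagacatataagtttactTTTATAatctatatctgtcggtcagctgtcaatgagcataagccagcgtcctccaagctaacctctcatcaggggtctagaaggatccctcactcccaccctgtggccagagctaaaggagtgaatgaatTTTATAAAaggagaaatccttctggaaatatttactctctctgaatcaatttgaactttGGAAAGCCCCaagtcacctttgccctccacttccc
Ccr1: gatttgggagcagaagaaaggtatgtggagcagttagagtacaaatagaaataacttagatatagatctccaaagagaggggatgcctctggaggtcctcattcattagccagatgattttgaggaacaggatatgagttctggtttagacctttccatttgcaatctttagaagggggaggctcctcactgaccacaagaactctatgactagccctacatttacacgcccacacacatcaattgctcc
Cxcl2: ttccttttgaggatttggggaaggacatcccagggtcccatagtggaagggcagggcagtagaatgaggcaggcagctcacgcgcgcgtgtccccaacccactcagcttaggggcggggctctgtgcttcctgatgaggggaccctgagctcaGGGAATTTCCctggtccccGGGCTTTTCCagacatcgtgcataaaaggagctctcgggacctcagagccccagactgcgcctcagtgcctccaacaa
Ccl20: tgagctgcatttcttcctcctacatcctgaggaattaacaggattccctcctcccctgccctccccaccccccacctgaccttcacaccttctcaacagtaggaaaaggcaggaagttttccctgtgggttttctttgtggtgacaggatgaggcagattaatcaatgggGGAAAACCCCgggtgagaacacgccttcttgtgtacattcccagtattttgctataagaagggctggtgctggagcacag
Cxcl13: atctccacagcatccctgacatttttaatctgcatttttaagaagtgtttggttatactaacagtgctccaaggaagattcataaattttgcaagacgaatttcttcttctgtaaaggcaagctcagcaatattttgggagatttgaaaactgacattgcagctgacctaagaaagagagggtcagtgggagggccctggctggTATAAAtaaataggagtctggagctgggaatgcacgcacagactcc
Ccl8: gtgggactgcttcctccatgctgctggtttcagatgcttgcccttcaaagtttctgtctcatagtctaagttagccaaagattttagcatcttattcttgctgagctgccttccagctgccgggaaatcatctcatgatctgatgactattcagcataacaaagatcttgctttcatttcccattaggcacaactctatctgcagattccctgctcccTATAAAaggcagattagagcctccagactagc

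RefSeq promoter entries, which span 300 bases from 250 before to 50 after the start, were found for 39 of the 55 members. Only 3 of these 39 (Ccl21b, Ccl25 and Cxcl14) had an observed over expected CpG ratio of at least 0.6, against 47.8% of all 18458 promoters. The median ratio was 0.208 in members and 0.568 in all promoters. The NF-kB type motif was present in 6 of 39 member promoters, those of Ccl20, Ccl9, Ccr3, Cxcl1, Cxcl2 and Cxcl3, and in 1.59% of all. Of these 6, the bodies of Ccl9 and Cxcl2 rose and that of Ccl20 fell. The bodies of Ccr3, Cxcl1 and Cxcl3 were not called, and the downstream window of Cxcl3 rose. Cxcl2 carried the motif at 2 places, and Ccl9 and Ccl20 at 1 each. Whether the motif goes with the change was not tested. TATAAA was present in 10 of 39 and in 13.1% of all, and an interferon response type motif (TTTC, any 2 bases, then TTTC) in 2 of 39 and in 3.4% of all. These motifs were searched on both strands, and a match says only that the letters are there.

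The authors counted reads over 3 region classes: the 5 kb upstream of each gene, the gene body and the 5 kb downstream. Gene body totals were 12386891 and 10572534 in controls and 4723549 and 6031189 in knockouts, and the flanks held 677213 to 1260351 counts per library. Each class was compared with edgeR's quasi-likelihood test after TMM scaling, which equates the bulk of genes between libraries. A region was called at a Benjamini-Hochberg adjusted p under 0.05 over all genes tested in that class. Levels are TMM-scaled CPM, counts per 1000000 reads of the class, and folds are log2 of knockout over control, with the standard error (SE). Separate mice are not named for the replicates in the labels, so a p-value reflects how far these libraries spread, which may be technical. No spike-in is named, so folds are relative, and fewer cells with the mark and less mark per cell cannot be told apart. In knockout replicate 1, 16.48% of counts lay upstream of genes, against 11.39% in knockout replicate 2 and 7.86% and 8.43% in controls. Kat7, which encodes HBO1, had 30.7 and 30.1 CPM over its body in controls and 88.2 and 39.1 in knockouts, and a histone mark over the whole gene does not check the deletion.

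With TMM scaling, chemokine genes differed in both directions, with more rises than falls over gene bodies and downstream and more falls than rises upstream. Over gene bodies 8 of 42 tested members rose (19.0%) and 3 fell (7.1%), where 23.1% of all genes tested rose and 15.2% fell (38.3% in either direction). Upstream 1 of 48 rose (2.1%) and 5 fell (10.4%), where the shares of all genes were 24.0% and 14.3% (38.3% in either direction). Downstream 7 of 47 rose (14.9%) and 1 fell (2.1%), where they were 10.8% and 2.29% (13.1% in either direction). The members' share of rises was below the background upstream and near it over bodies and downstream, and the share of falls was below or near it. The upstream balance turned with other scalings: 6 members rose and 2 fell with totals pooled over the 3 classes, and 4 rose and 1 fell when levels were scaled on olfactory and vomeronasal receptor genes (receptor scaling). The members' upstream median was then 0.17 and 0.51, beside 0.46 and 0.83 for all genes. The members were not tested as a list. Among genes with a CpG-poor start (ratio under 0.6), as most members have, 10.2% of upstream regions rose and 23.4% fell. Over the bodies of such genes 11.1% rose and 21.8% fell, and downstream 8.1% and 2.95%.

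**Figure D1:**
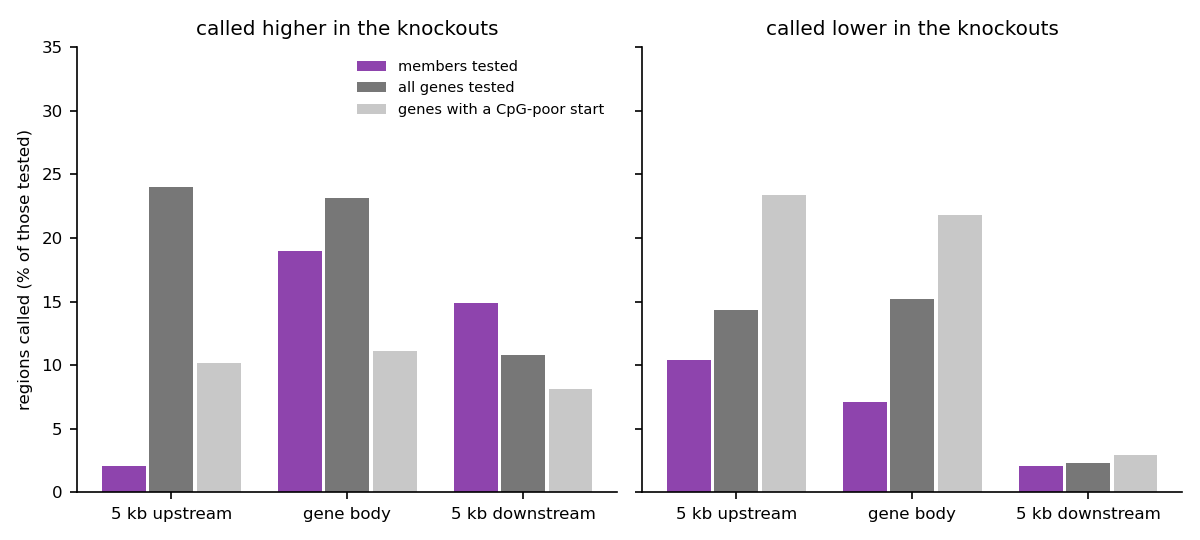
Share of regions called higher (left) or lower (right) in the knockouts, in percent of those tested, for the members, all genes and genes with a CpG-poor start, by region class. The bar of members called higher upstream (2.1%) is far shorter than that of all genes (24.0%), and downstream members (14.9%) and all genes (10.8%) are close.

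The median log2 fold of the members was -0.38 upstream, -0.135 over bodies and -0.03 downstream, beside -0.09, 0.02 and -0.03 for all genes. Upstream, both knockouts lay above both controls at 10 of 48 members (20.8%) and below at 22 (45.8%), beside 37.8% and 39.9% of all genes. Over bodies they lay above at 14 of 42 (33.3%) and below at 14 (33.3%), beside 40.6% and 39.4%, and downstream above at 13 of 47 (27.7%) and below at 15 (31.9%), beside 29.9% and 32.7%. For genes with CpG-poor starts the shares above and below were 18.5% and 59.4% upstream, 22.4% and 55.2% over bodies, and 23.1% and 39.5% downstream. In total 18 members were called in at least 1 class, and 6 in 2 or more: Ccl20, Ccl3, Ccl9, Ccr1, Ccr10 and Cxcl13. No member was called in opposite directions. Of the 42 members tested in all 3 classes, 8 had positive folds in each, 16 had negative folds in each, and 18 had mixed signs. These signs hold for TMM scaling only, and no share over all genes is given beside them. Receptor scaling raised the median fold over all genes by 0.92 upstream, 0.65 over bodies and 0.31 downstream. With TMM scaling no member called higher over the body or downstream was called higher upstream, but with pooled totals Ccl27a, Ccl4, Ccr10 and Cxcl2 were, with receptor scaling Ccl27a and Ccr10, and with the DESeq2 Wald test Ccl4.

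**Figure D2:**
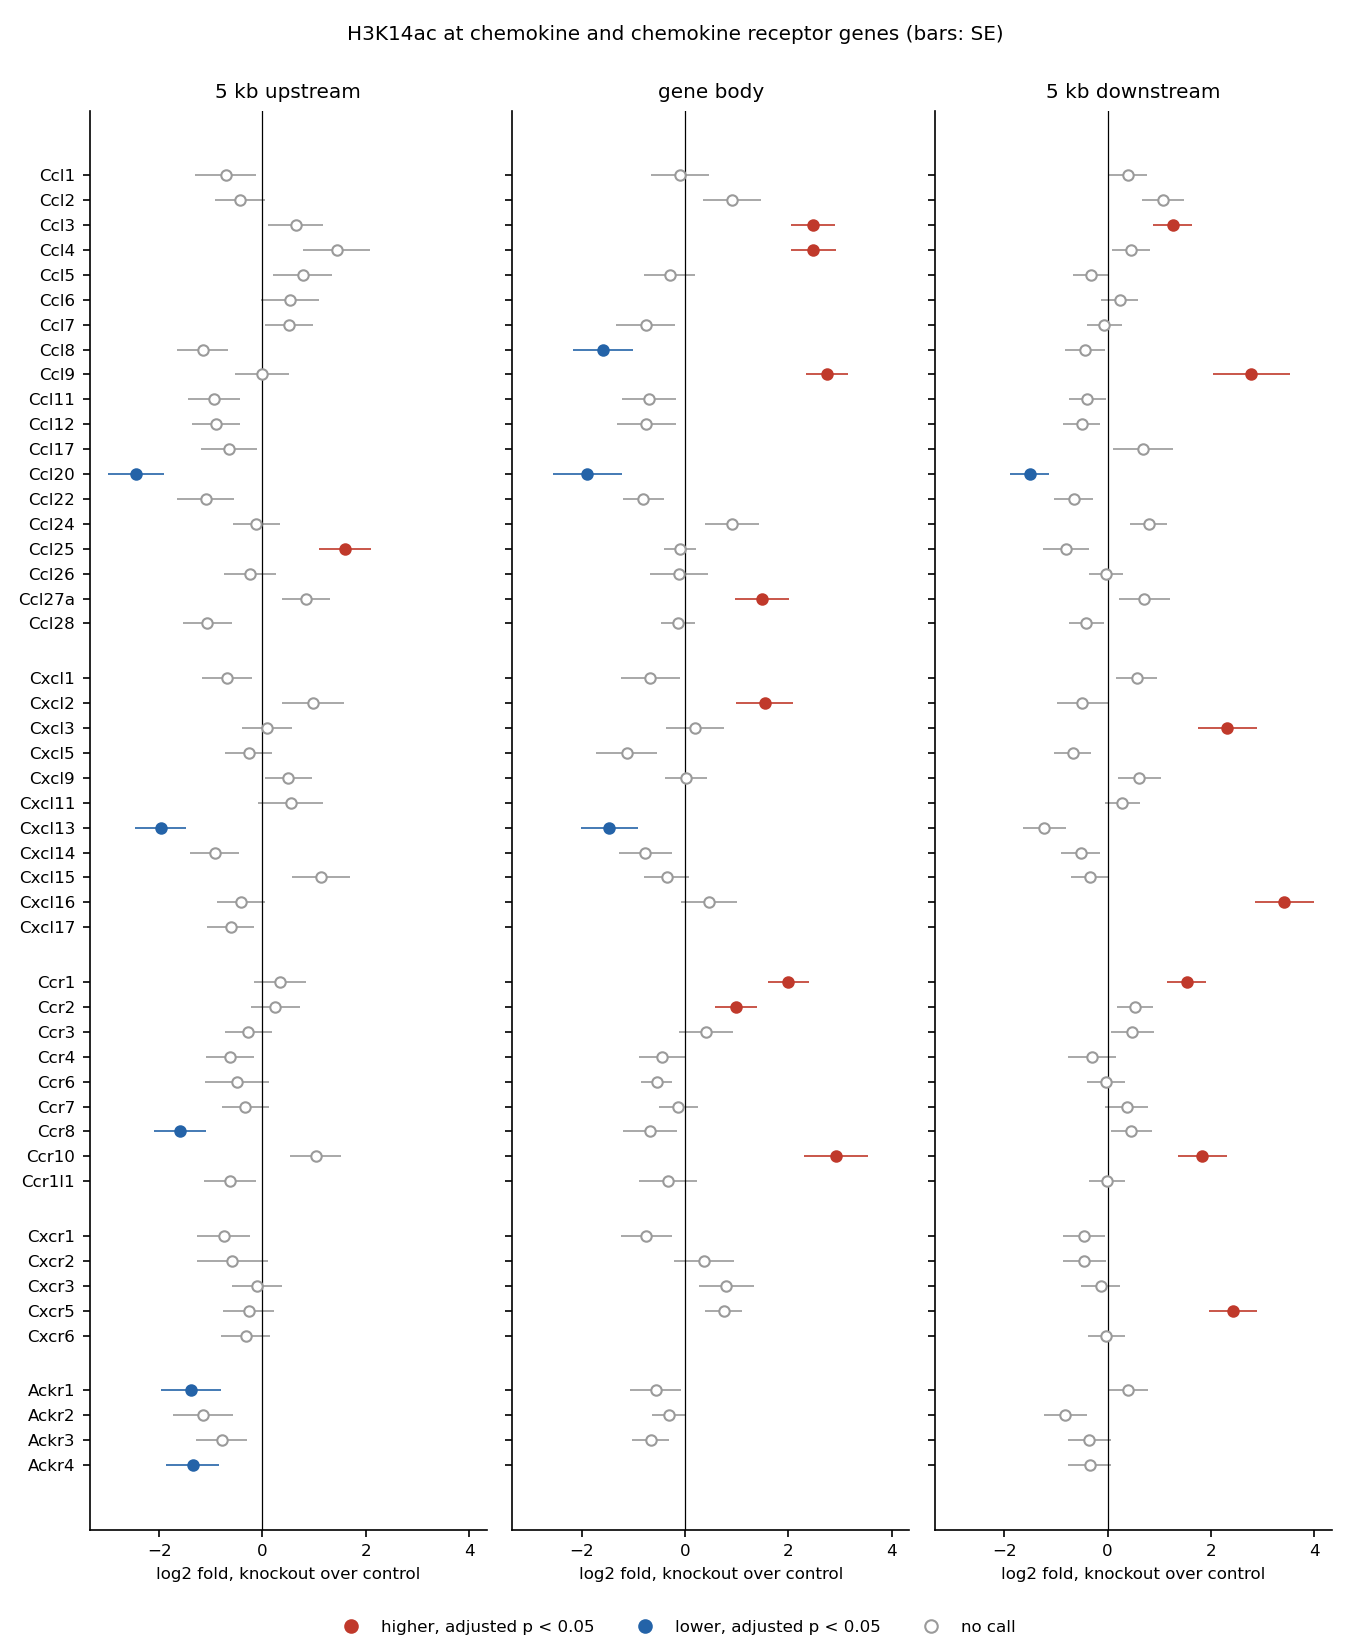
Log2 fold of H3K14ac, knockout over control, for each member tested, by region class, with families separated by a gap. Points are fitted values, bars are SE, and filled points passed the adjusted p threshold of 0.05; rises cluster over gene bodies and downstream, and Ccl20 is lower in each class.

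The gene body rises with the lowest adjusted p were at 3 CC chemokines from one stretch of chromosome 11: Ccl9, Ccl3 and Ccl4, which attract monocytes and other leukocytes. Ccl6 lies between Ccl9 and Ccl3, and its body was not tested. Ccl9 (Entrez 20308, chr11:83572917-83578636), a macrophage inflammatory protein that acts through CCR1, had 6.22 and 4.85 CPM over its body in controls and 53.3 and 21.8 in knockouts. Its log2 fold was 2.75 ± 0.40 (SE; edgeR adjusted p = 1.58e-07), and both knockouts lay above both controls. Downstream of Ccl9 the libraries held 40.7 and 53.5 CPM in controls and 453 and 196 in knockouts, a log2 fold of 2.78 ± 0.74 (edgeR adjusted p = 0.0187). Upstream the groups overlapped, at 23.4 and 11.6 CPM against 13.6 and 21.1 (log2 fold -0.01 ± 0.53). The downstream call of Ccl9 was lost when either control was left out (2.59 without control replicate 1 and 2.99 without control replicate 2), and the call over the body was not. The window before the start also holds the start of E230016K23Rik.

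Ccl3 (Entrez 20302, chr11:83647843-83649378) encodes a ligand of CCR1 that has a known part in restraining stem cell cycling. Over its body it had 5.14 and 4.65 CPM in controls and 37.2 and 17.4 in knockouts (log2 fold 2.47 ± 0.43, edgeR adjusted p = 4.75e-06). Both knockouts stood well above both controls. Downstream, the levels were 19.6 and 27.1 CPM in controls and 69.0 and 44.8 in knockouts, a rise of 1.26 ± 0.38 (edgeR adjusted p = 0.0359), again without overlap. Upstream they were 58.2 and 65.5 against 110.2 and 83.1 CPM (log2 fold 0.64 ± 0.53), which did not pass.

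Ccl4 (Entrez 20303), which encodes a macrophage inflammatory protein, had 3.95 and 5.25 CPM in controls and 36.6 and 15.1 in knockouts (log2 fold 2.48 ± 0.44, edgeR adjusted p = 7.48e-06). The groups did not overlap over the body, and they did downstream, where knockout replicate 2 lay at 34.29 CPM between the control values of 30.5 and 34.31. Upstream, Ccl4 had 60.8 and 82.0 CPM in controls and 245 and 143 in knockouts (log2 fold 1.44 ± 0.65, edgeR adjusted p = 0.0642), short of the threshold. GRCm38.p6 annotates Ccl4 as overlapping Ccl3, but the deposited length of Ccl4 differs from the annotated one by more than 20%. Whether reads were shared between the pair was therefore not tested.

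On one scale, CPM per kb out of the reads of all 3 classes together, Ccl9 had 0.74 and 0.67 over the body in controls and 7.79 and 3.34 in knockouts. Its downstream window was similar, at 0.70 and 1.05 against 7.52 and 3.90. Ccl3 bodies were at 2.29 and 2.39 in controls and 20.2 and 9.98 in knockouts, above its downstream window (0.34 and 0.53 against 1.14 and 0.89). In Ccl9 the body and the downstream window held similar densities, and in Ccl3 the body was denser than the downstream window in each library.

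**Figure D3:**
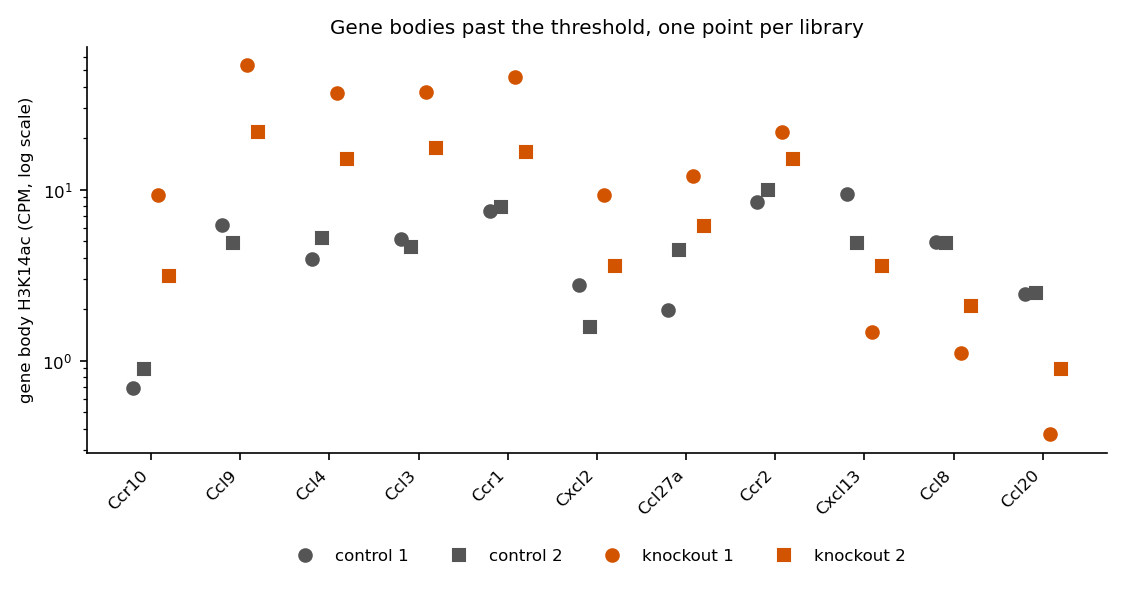
Gene body H3K14ac in CPM (log axis) for the 11 members called there, with 1 point per library; gray marks controls and orange marks knockouts. Knockout and control points do not overlap in any of these genes, and knockout replicate 1 (orange circles) lies further from the controls than knockout replicate 2 in each.

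Receptors that rose were Ccr1, Ccr10 and Ccr2. Ccr1 (Entrez 12768, chr9:123962126-123968692), the receptor for Ccl3 and Ccl9 on monocytes and neutrophils, had 7.51 and 7.92 CPM over its body in controls and 45.5 and 16.6 in knockouts. The log2 fold was 2.00 ± 0.40 (edgeR adjusted p = 7.78e-05), with no overlap. Downstream of Ccr1 there were 26.6 and 39.9 CPM in controls and 119 and 75.2 in knockouts (1.53 ± 0.38, edgeR adjusted p = 0.011). Its upstream window did not separate the groups, with 57.3 and 56.4 CPM against 87.5 and 56.5. Ccr1 and its ligands Ccl3 and Ccl9 were thus all called higher over the body, as were 23.1% of all genes tested. Whether receptors and ligands moved together was not tested. The bodies of Ccr10 and its ligand Ccl27a both rose, while the receptor Xcr1 rose and its ligand Xcl1 fell.

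Ccr10 (Entrez 12777, chr11:101172998-101175443), a skin homing receptor, had the highest fold over a body among members. Its counts were low, at 7 and 9 reads in controls and 50 and 21 in knockouts, or 0.69 and 0.89 against 9.25 and 3.13 CPM. The log2 fold was 2.93 ± 0.62 (edgeR adjusted p = 1.47e-04). Ccr10 rose downstream as well, from 16.4 and 19.2 to 100.7 and 30.3 CPM (1.83 ± 0.48, edgeR adjusted p = 0.0158), but that window holds the start of Plekhh3, and its body overlaps Cntnap1. Without knockout replicate 1 the downstream fold of Ccr10 was 0.76 and did not pass.

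Ccr2 (Entrez 12772, chr9:124101918-124109140), the CCL2 receptor through which monocytes leave bone marrow, had 8.495 and 9.996 CPM over its body in controls and 21.8 and 15.1 in knockouts. Its rise of 0.99 ± 0.41 was just past the threshold (edgeR adjusted p = 0.048), and it was lost when any library but knockout replicate 2 was left out. Both knockouts lay above both controls at Ccr2 in all 3 classes. Ccr7, which guides cells to lymph nodes, had 17.6 and 19.3 CPM against 16.83 and 16.85 (-0.13 ± 0.38). Its fold was 0.21 with library totals, 0.52 with receptor scaling and 0.08 with pooled totals, which moved the median over all gene bodies by 0.35, 0.65 and 0.22, so its sign is that of the scaling chosen.

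Among CXC receptors none was called over the body. Cxcr5, which brings B cells to follicles, had 18.7 and 16.5 CPM over its body in controls and 37.0 and 22.2 in knockouts (log2 fold 0.75 ± 0.36, edgeR adjusted p = 0.0861). Downstream, Cxcr5 rose from 7.04 and 13.6 to 72.7 and 40.9 CPM (2.43 ± 0.46, edgeR adjusted p = 0.00211), in a window that lies wholly within Bcl9l. That call was lost with a GC correction. Cxcr2, the neutrophil receptor for Cxcl1 and Cxcl2, had 3.26 and 1.68 CPM against 5.18 and 1.34, with overlapping groups (0.37 ± 0.58), and its fold was -0.84 without knockout replicate 1. Cxcr3, a receptor of activated T cells, had 3.36 and 3.17 against 7.58 and 3.88 CPM (0.80 ± 0.53) and did not pass.

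Among CXC chemokines, Cxcl2 (Entrez 20310, chr5:90903899-90905938), a neutrophil attractant bound by CXCR2, had 2.77 and 1.58 CPM over its body in controls and 9.25 and 3.58 in knockouts (log2 fold 1.54 ± 0.56, edgeR adjusted p = 0.0233). Knockout replicate 2 was close to control replicate 1, and without knockout replicate 1 the fold of Cxcl2 was 0.75 and did not pass. Its neighbour Cxcl1, with the same receptor, had 4.45 and 2.08 against 1.67 and 2.39 CPM (-0.67 ± 0.57), and the groups overlapped. Cxcl3 had 2.47 and 2.18 against 3.14 and 2.24 CPM over its body, and downstream it rose from 43.0 and 35.9 to 296 and 100.2 CPM (2.32 ± 0.57, edgeR adjusted p = 0.0115). By the annotation that window overlaps the one upstream of Cxcl15, which held 56.4 and 57.2 CPM in controls and 161 and 89.7 in knockouts (1.14 ± 0.56, edgeR adjusted p = 0.0897). The 2 windows share bases, and the reads in the shared stretch were not counted apart.

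Cxcl16 (Entrez 66102), a membrane-bound ligand of CXCR6, had the highest fold of any member region. Downstream it held 13.3 and 17.6 CPM in controls and 267 and 69.9 in knockouts (log2 fold 3.42 ± 0.57, edgeR adjusted p = 0.00102). The window holds the start of Med11, a gene of the Mediator complex, and it was not analysed apart from it. Over the body of Cxcl16 itself the levels were 2.57 and 2.87 against 4.44 and 3.13 CPM (0.47 ± 0.55), and upstream 61.6 and 48.1 against 35.2 and 46.5 (-0.42 ± 0.47). The Cxcl16 call thus belongs to a shared window. The single upstream rise was of the same kind: Ccl25, a thymus and gut chemokine, went from 34.7 and 28.2 to 115 and 76.4 CPM (1.60 ± 0.51, edgeR adjusted p = 0.00801) in a window with the start of Elavl1. Over its body the groups overlapped, at 39.9 and 36.6 against 32.6 and 39.2 CPM (-0.09 ± 0.31).

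Ccl27a (Entrez 20301, chr4:41769467-41774225), a skin chemokine that binds CCR10, had 1.98 and 4.45 CPM over its body in controls and 12.02 and 6.11 in knockouts (log2 fold 1.48 ± 0.53, edgeR adjusted p = 0.0212). Its end overlaps Il11ra1, and the mouse genome holds a near-identical copy, Ccl27b, so its reads are uncertain. Ccl27b was listed at 0 counts over the body in all 4 libraries. The Ccl27a call was lost without knockout replicate 1 (0.95) and without control replicate 1 (1.01).

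Falls were fewer, and Ccl20 was the only member called in all 3 classes. Ccl20 (Entrez 20297, chr1:83116766-83119167), the CCR6 ligand that draws dendritic cells and lymphocytes to mucosa, had 51.2 and 35.6 CPM upstream in controls and 4.55 and 11.1 in knockouts. The log2 fold was -2.45 ± 0.55 (edgeR adjusted p = 1.21e-04). Over the body, Ccl20 had 25 and 25 reads in controls and 2 and 6 in knockouts, or 2.470 and 2.474 against 0.370 and 0.895 CPM (-1.90 ± 0.67, edgeR adjusted p = 0.0204). Downstream it held 90.8 and 55.9 CPM against 28.0 and 23.7 (-1.51 ± 0.38, edgeR adjusted p = 0.0136). The groups did not overlap in any of the 3 windows, and no other gene is annotated in them. The Ccl20 fold stayed negative under each alternative run, but all 3 calls were lost without control replicate 1.

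Cxcl13 (Entrez 55985, chr5:95956939-95961068), the B cell attractant that binds CXCR5, had 54.7 and 47.2 CPM upstream in controls and 13.6 and 12.2 in knockouts (log2 fold -1.97 ± 0.50, edgeR adjusted p = 7.78e-04). Over the body it fell from 9.38 and 4.85 to 1.48 and 3.58 CPM (-1.46 ± 0.55, edgeR adjusted p = 0.0301). Downstream it had 125 and 68.6 CPM against 29.8 and 51.4 (-1.23 ± 0.42, edgeR adjusted p = 0.0621), which did not pass. Ccl8 (Entrez 20307, chr11:82115185-82116799), a monocyte attractant, had 4.94 and 4.85 CPM over its body in controls and 1.11 and 2.09 in knockouts (-1.58 ± 0.58, edgeR adjusted p = 0.0254). In each of these called regions both knockouts lay below both controls. With receptor scaling, the folds of the Cxcl13 body (-0.83), the Ccl8 body (-0.97) and the Ccl20 body (-1.30) kept their sign and did not pass.

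The receptor regions that fell were 3 upstream windows. Ccr8, a receptor of regulatory and helper T cells, had 92.9 and 87.0 CPM upstream in controls and 23.9 and 35.5 in knockouts (log2 fold -1.60 ± 0.51, edgeR adjusted p = 0.00847). Over the body, Ccr8 had 6.22 and 5.54 against 3.14 and 4.18 CPM (-0.68 ± 0.52), which did not pass although the groups did not overlap. Ackr1, the Duffy chemokine receptor of red cells and endothelium, had 167 and 103 against 37.5 and 65.4 CPM (-1.39 ± 0.58, edgeR adjusted p = 0.044), in a window within Cadm3. Ackr4, which clears lymphoid chemokines, had 90.3 and 87.0 against 22.7 and 46.5 CPM (-1.35 ± 0.51, edgeR adjusted p = 0.0259), in a window that overlaps Acad11. Knockouts lay below controls at each of the 4 atypical receptors upstream, where 39.9% of all genes tested showed that separation. All 4 have a CpG-poor start, and among genes with such a start the share was 59.4%. Ackr3, which scavenges chemokines in stroma and endothelium, had 85.9 and 65.5 against 37.5 and 49.9 CPM upstream (-0.79 ± 0.49) and 29.9 and 24.0 against 15.4 and 18.6 over its body (-0.66 ± 0.36), and neither passed. All 5 upstream falls were lost when control replicate 1 was left out, and likewise with either knockout left out.

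Several members lie in clusters, taken here as members whose starts chain within 250 kb, and the 4 with 5 or more genes differed in what passed. On chromosome 11, Ccl5, Ccl9, Ccl6, Ccl3 and Ccl4 lie within 138.9 kb, and 3 of the 4 tested bodies rose. Ccl5, an attractant of lymphocytes and monocytes at one edge, had 6.32 and 8.61 CPM in controls and 4.81 and 7.31 in knockouts (log2 fold -0.29 ± 0.49), with overlapping groups. The summed body level of this cluster was 21.6 and 23.4 CPM in controls and 131.9 and 61.6 in knockouts. The other cluster on chromosome 11 holds Ccl2, Ccl7, Ccl11, Ccl12, Ccl8 and Ccl1 within 144.2 kb, and there 0 of 6 bodies rose and 1, Ccl8, fell. Its summed body level was 19.4 and 25.1 CPM in controls and 14.8 and 15.8 in knockouts. Ccl2, the CCR2 ligand in that cluster, had 1.38 and 2.28 against 4.44 and 2.54 CPM (0.91 ± 0.57), and its downstream window 57.1 and 55.1 against 139.8 and 97.6 (1.07 ± 0.40, edgeR adjusted p = 0.0891). Whether the clusters differed from each other was not tested.

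On chromosome 9, Cxcr6, Ccr1, Ccr1l1, Ccr3 and Ccr2 lie within 302.7 kb, and the bodies of Ccr1 and Ccr2 rose among the 4 tested. Their summed body level was 23.1 and 23.9 CPM in controls and 74.5 and 38.8 in knockouts. Ccr1l1, next to Ccr1, had 3.26 and 2.47 against 1.85 and 2.68 CPM (-0.33 ± 0.56), and Ccr3, the eosinophil receptor, 3.85 and 3.56 against 5.36 and 4.47 (0.40 ± 0.52). In the CXC cluster of chromosome 5 (Cxcl5, Cxcl3, Cxcl15, Cxcl1 and Cxcl2, within 146.6 kb) 1 of 5 bodies rose. Neighbours therefore did not all move as a block in these clusters.

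**Figure D4:**
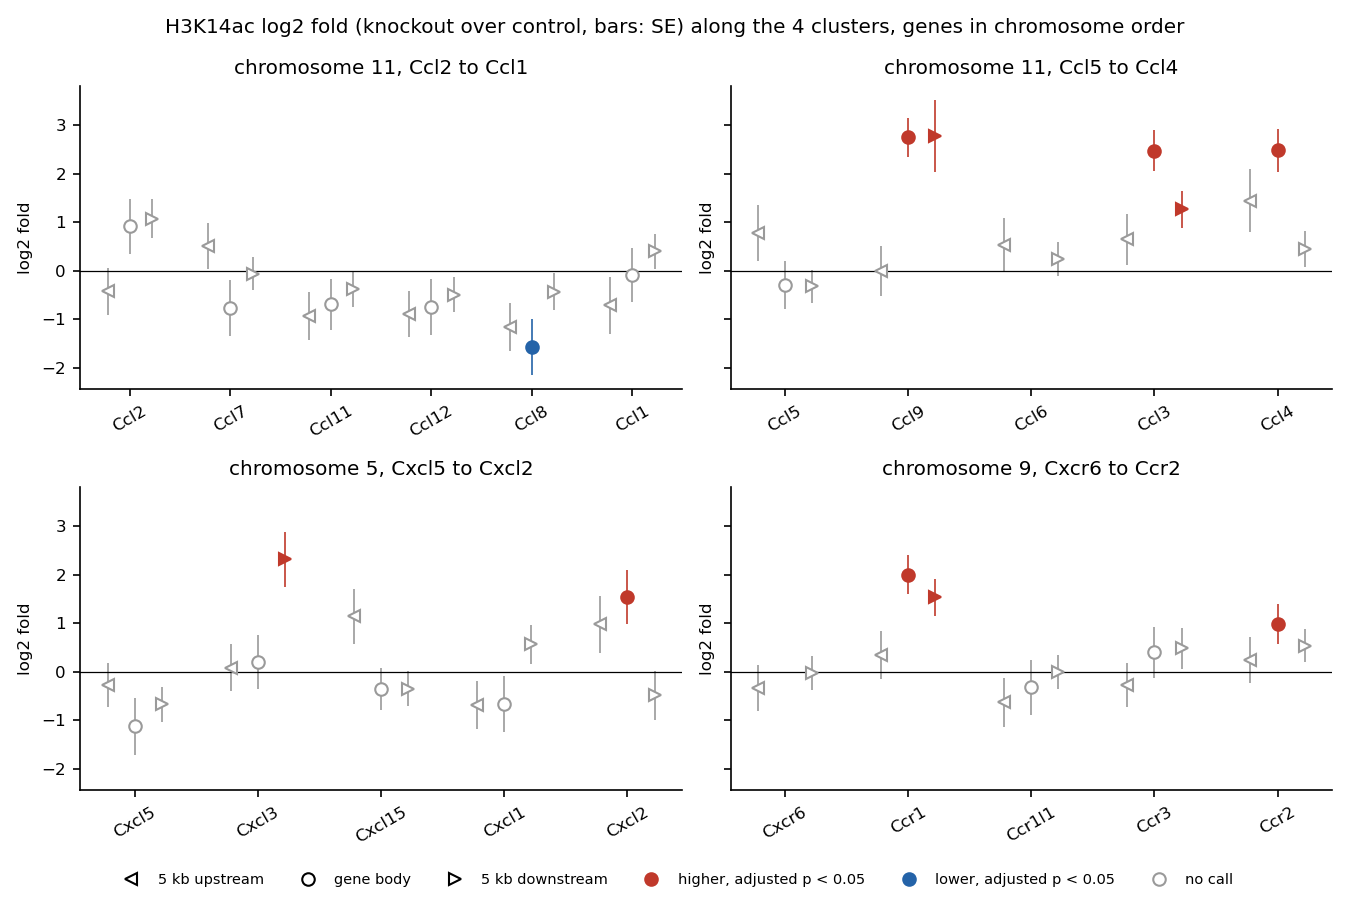
Log2 fold of H3K14ac (knockout over control, bars SE) in the 4 clusters with 5 or more members, with genes in chromosome order and the 3 region classes side by side; filled symbols passed the threshold. Ccl9, Ccl3 and Ccl4 bodies lie between 2.47 and 2.75, while the bodies from Ccl7 to Ccl1 lie below 0.

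Inflammatory ligands were taken as Ccl2, Ccl3, Ccl4, Ccl5, Ccl7, Ccl8, Ccl11, Ccl12, Cxcl1, Cxcl2, Cxcl3, Cxcl5, Cxcl9 and Cxcl11. Homeostatic ligands were taken as Ccl17, Ccl19, Ccl20, Ccl21a, Ccl21b, Ccl21c, Ccl22, Ccl25, Ccl27a, Ccl28, Cxcl13 and Cxcl14. Some ligands, Ccl9 among them, were in neither list, and the counts depend on these choices. The inflammatory list gave 3 rises and 1 fall among 13 tested bodies (median log2 fold -0.29), and the homeostatic list 1 rise and 2 falls among 7 (median -0.77). Over all gene bodies the median was 0.02, 23.1% rose and 15.2% fell, and the share of rises among inflammatory ligands was also 23.1%. Upstream the medians were 0.29 for 14 inflammatory and -0.997 for 8 homeostatic ligands, with 0 calls in the former and 1 rise and 2 falls in the latter. For all genes upstream the median was -0.09, 24.0% rose and 14.3% fell. At an unadjusted p under 0.05, 14 of all 48 members tested passed upstream, beside 11339 of all 23200 genes tested. Cxcl14, a homeostatic chemokine of skin and stroma, had 7.11 and 6.63 against 3.70 and 4.32 CPM over its body (-0.77 ± 0.51) and did not pass.

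Levels per kb over gene bodies spanned a wide range in controls. Ackr1 was highest at 5.10 CPM per kb, followed by Ccl22 (3.67) and Ccl3 (3.19), and Ccr10 (0.32), Cxcr2 (0.34) and Ccr3 (0.38) were lowest among those tested. The member median was 1.35 CPM per kb and that of all tested genes 0.86. Ackr1 lies almost wholly (99.6%) within Cadm3 by annotation, and over its body it had 10.47 and 6.04 against 6.84 and 4.32 CPM (log2 fold -0.57 ± 0.50), with overlapping groups. Ccl22, a chemokine for CCR4, had 24.5 and 17.3 against 11.8 and 12.1 CPM (-0.81 ± 0.39, edgeR adjusted p = 0.0914). The body of Ccl3 reached 24.2 and 11.4 CPM per kb in the knockouts.

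Of the 55 members, 13 were not tested over the body because of low counts, 7 upstream and 8 downstream. Of these, 9 were listed at 0 over the body in all 4 libraries: Ackr4, Ccl17, Ccl21a, Ccl21c, Ccl27b, Ccl6, Cxcl11, Cxcl17 and Cxcr6. Of the 9, 5 (Ackr4, Ccl6, Cxcl11, Cxcl17 and Cxcr6) lie wholly inside another counted gene, and of all 1578 genes so placed 80.6% had 0 counts in each library, against 1.88% of 23606 others. A count of 0 at such genes is no measure of the mark there. Ccl6 had 90.3 and 63.0 CPM upstream in controls and 145 and 76.4 in knockouts. Ccl19, Ccl19-ps1 and the Ccl21 genes had at most 9.55 CPM in any window, and those with a position lie on chromosome 4. Near-identical copies exist within the Ccl19 and within the Ccl21 genes, so values for these copies are uncertain.

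The wider pathway was followed through fixed lists. Of 40 transducers and regulators that act below chemokine receptors, 17 rose over the body (42.5%, beside 23.1% of all genes) and 0 fell, among them Grk2, a kinase that desensitises the receptors (14.8 and 16.5 CPM in controls, 145 and 50.2 in knockouts; log2 fold 2.64 ± 0.34). Gnai2, the G protein subunit that couples to them, had 13.0 and 13.9 against 86.7 and 30.9 CPM (2.12 ± 0.35), and Rela, an NF-kB subunit, 1.28 and 3.66 against 17.0 and 9.10 (2.39 ± 0.53). Upstream 22 of 38 tested rose (57.9%, beside 24.0% of all genes) and 1, Bcar1, fell. Downstream 8 of 34 rose (23.5%, beside 10.8%) and 0 fell. Among all genes with a CpG-rich start (ratio of at least 0.6), 43.1% rose upstream, 36.2% over bodies and 14.3% downstream. The median fold of the list was 0.74 over bodies, 1.31 upstream and 0.02 downstream. In the same family but outside the symbol rule, 3 of 7 bodies rose: Xcr1, the dendritic cell receptor (2.07 and 3.37 against 46.8 and 17.1 CPM; 3.54 ± 0.46), Ccrl2 (2.58 ± 0.46) and Cx3cr1 (1.14 ± 0.32). Xcl1, the ligand of XCR1, fell (-1.20 ± 0.49).

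Markers of other cells moved in both directions over gene bodies, where 23.1% of all genes tested rose and 15.2% fell. Upstream these shares were 24.0% and 14.3%, and downstream 10.8% and 2.29%. Of 7 granulocyte, monocyte and macrophage markers, Cd68, Mpo and Elane rose over the body and Adgre1 fell. Elane had 2.77 and 1.88 CPM in controls and 10.7 and 1.79 in knockouts, so its rise lay in knockout replicate 1 alone. The summed body level of the 7 markers was 320.0 and 239.7 CPM in controls and 383.0 and 237.8 in knockouts. Of 5 LSK and progenitor markers, Flt3 rose and Slamf1 fell, and Kit had 132 and 130.2 against 134 and 125 CPM. Among 6 T and NK markers Nkg7 rose and Cd8a fell, and of 4 B cell markers none passed, with Ms4a1 at 0 over its body in each library. In the downstream windows, where 7 members rose, Cd3g (log2 fold 3.58 ± 0.55, edgeR adjusted p = 7.57e-04), Nkg7 (2.46 ± 0.50) and the B cell marker Cd79a (2.47 ± 0.53) rose and no marker fell. The bodies of Cd3g (0.17) and Cd79a (0.68) did not pass, and these windows were not analysed apart from any other gene in them. Upstream, Cd68, Elane and Flt3 rose and no marker fell. Of 5 stromal and endothelial markers, Pdgfra, Lepr and Cdh5 fell over the body, and the summed body level was 513.9 and 406.2 CPM in controls and 222.1 and 306.3 in knockouts. Klf1 rose among the 2 erythroid markers matched. The part of such cells in the chemokine results was not tested.

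Knockout replicate 1 lay further from the controls than knockout replicate 2 at all 8 rises and all 3 falls over bodies and at all 7 rises downstream. Upstream it did so at the 1 rise and at 4 of 5 falls, and downstream not at the 1 fall. It lay further as well for 98.7% of all genes called higher over bodies and 97.6% of those downstream. Without knockout replicate 1, the gene body folds were 2.01 for Ccl9, 1.86 for Ccl3, 1.74 for Ccl4, 1.13 for Ccr1 and 2.00 for Ccr10, and each still passed. These 5 were the calls, of 25 in all classes, that passed under every alternative that gave a value. In the alternative where it was weakest, each of the 5 lay only just under the threshold. The run without shared regions gave no value for the Ccl3, Ccl4 and Ccr10 bodies, which overlap another gene by annotation. Of the 25, 19 did not pass with control replicate 1 left out and 13 with control replicate 2 left out. Leaving out knockout replicate 1 lost 14 of them, and leaving out knockout replicate 2 lost 5. Over bodies the calls of Ccl20, Ccl8, Cxcl13, Cxcl2 and Ccr2 were each lost when control replicate 1, control replicate 2 or knockout replicate 1 was left out, as was the upstream rise of Ccl25. Downstream, Ccl3, Ccl9, Ccr1 and Cxcl3 were lost with either control left out, Ccl20, Ccr10 and Cxcl16 with control replicate 1 left out, and Ccl3 and Ccr10 also with knockout replicate 1 left out. The downstream call of Cxcr5 passed with each library left out.

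**Figure D5:**
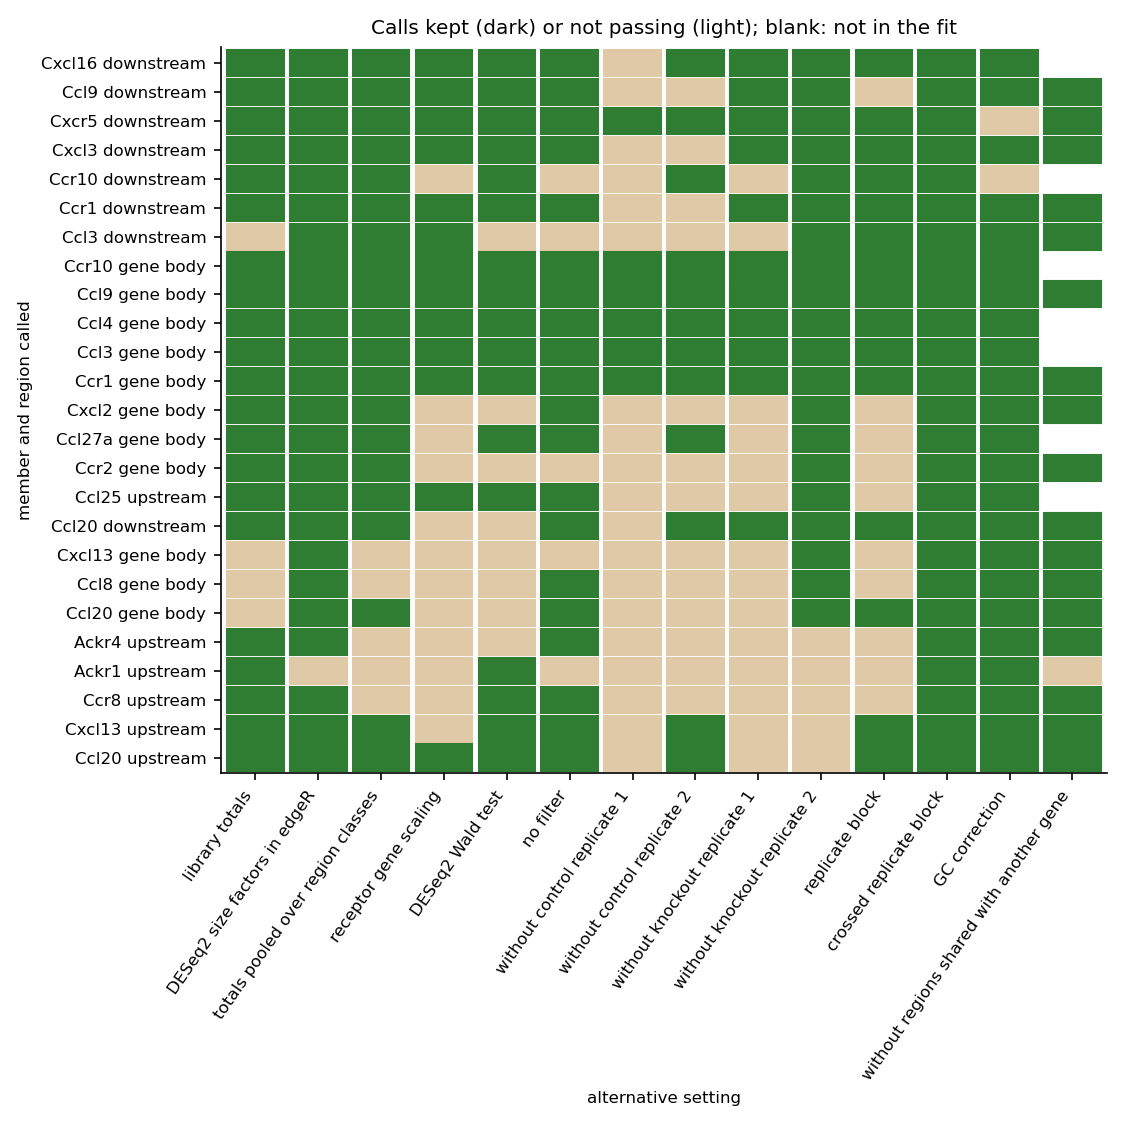
Calls of members (rows, by region) under each alternative setting (columns); dark cells passed in the same direction, light cells did not pass, and blank cells were not in that fit. Ccl9, Ccl3, Ccl4, Ccr1 and Ccr10 bodies are dark in every cell drawn.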

How the data were processed

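H3K14ac CUT&Tag counts of 4 LSK libraries, 2 control and 2 knockout, were used; the control library made with an HBO1 antibody was not used here. The deposited tables hold raw whole-number read counts per Entrez gene for 3 region classes, made by the authors with featureCounts on mm10, per the submitters' processing notes. The sources used here name no aligner, annotation release, filter, duplicate step or spike-in. The gene body length in bp, written by the authors beside the counts, gave counts per kb. Series and per-library tables held equal values (0 of 27179 genes differed).

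Symbols came from RefSeq by Entrez identifier (25275 named, 1904 not), and positions and promoters from GRCm38.p6 (54 of 55 members with a position; annotated and deposited lengths within 20% for 48). Each class was fitted whole with edgeR 4.0.16 (R 4.3.3; filterByExpr with a minimum count of 10 and total of 15, TMM, quasi-likelihood F-test, no covariate). P-values were adjusted by Benjamini-Hochberg over all genes tested, and the SE is the log2 fold divided by the square root of F. The edgeR step was run on simulated counts drawn with the same dispersion for every gene. That run does not check calls under the differences between libraries seen here. Depth limits low genes, and PCR copies among the reads are not separate molecules.

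A gene that the symbol rule would include is not reported here. The symbol rule and the lists were proposed with earlier results of these data known. Named were all members called in any class, a fixed list of receptors and ligands, and the 3 highest and 3 lowest control densities. Alternatives were size factors of DESeq2 1.42.0, its Wald test, scaling by library totals, by totals over all 3 classes or by olfactory and vomeronasal receptor genes (receptor scaling), no filter, each library left out, a block of the replicate number, a GC correction by loess (span 0.3) and leaving out shared regions (bodies that overlap another gene, and flanks that hold the start of another gene; flanks inside a gene stayed). A crossed block was added after seeing the data. Python 3.11.15, pandas 2.3.3, numpy 2.4.6 and matplotlib 3.10.9 were used.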

Additional observations from a re-analysis of the deposited data

How the results depend on the processing

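Of 25 calls of members, all but 1 kept their call with DESeq2 size factors in edgeR, 23 with the GC correction and 13 with receptor scaling, which shifted the median fold over all genes by 0.92 (log2) upstream, 0.65 over bodies and 0.31 downstream. The cause of each change below was not tested, apart from fewer libraries or regions where these were left out. From main counts of 1 higher and 5 lower upstream, 8 and 3 over bodies, and 7 and 1 downstream, receptor scaling gave 4 and 1, 5 and 0, and 6 and 0. Totals pooled over classes gave 6 and 2 upstream, 9 and 1 over bodies, and 7 and 2 downstream. Library totals gave 8 lower upstream, 0 lower over bodies and 2 lower downstream. The DESeq2 Wald test gave 2 higher upstream, 0 lower over bodies and 0 lower downstream, and the GC correction 2 lower downstream. Without shared regions, 0 members were higher upstream and 4 over bodies. Leaving out 1 library gave 0 to 1 higher and 0 to 2 lower upstream, 5 to 11 higher and 0 to 3 lower over bodies, and 1 to 11 higher and 0 to 2 lower downstream.

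The share of all genes called, 38.3% upstream, 38.3% over bodies and 13.1% downstream, ranged with 1 library left out from 0% to 9.6%, 6.72% to 51.0% and 3.22% to 21.4%. Over bodies it was 21.8% with receptor scaling, and downstream 7.59% with no filter and 7.3% without shared regions. Library totals, receptor scaling and pooled totals moved the median of all bodies by 0.35, 0.65 and 0.22, so a sign that turned with them says nothing of the gene. Examples were the Ackr1 body (0.15 with receptor scaling), the Ccl5 body (0.034 with library totals, 0.309 with receptor scaling) and the Ccr7 body (0.21, 0.52 and 0.084 with library totals, receptor scaling and pooled totals). Other member bodies turned as well. The median over member bodies was -0.135 in the main run, 0.21 with library totals, 0.505 with receptor scaling and 0.085 with pooled totals. The sign also reversed for the Cxcr2 body (-0.034 without control replicate 2 and -0.837 without knockout replicate 1; the folds ran from -0.837 to 1.117 with 1 library left out). None of the bodies named here was called.

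Same-numbered libraries did not deviate in the same direction from their group means (correlations of -0.28, -0.36 and -0.22). With 2 libraries per group this cannot tell whether libraries of the same number were handled together. With the replicate block, 0 members were higher and 2 lower upstream, 5 and 1 over bodies, and 6 and 1 downstream, and 18.8%, 17.2% and 11.2% of all genes were called; the downstream call of Ccl9 was among the 10 lost (adjusted p = 0.0848). With the crossed block 5 and 12, 9 and 7, and 9 and 2 members were called, and 24.1% of genes downstream.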
